A study of Mus musculus with 6 samples.

Results

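The 10 genes described here belong to the absorptive programme of the small intestine: the glucose carrier Slc5a1, the amino acid carrier Slc6a19, the peptidase Anpep, the microvillus protein Vil1, the fatty acid binding proteins Fabp1 and Fabp2, the apolipoproteins Apoa1 and Apoa4, the transcription factor Cdx2 and the adhesion protein Cdh17. They were found on the arrays by gene name among all probes that are not controls, which gave 11 probes out of 56605, 2 of them for Cdh17. A gene was measured if the scanner software flagged a probe of it as well above background throughout 1 of the groups (well above background is also called detected here), which 8 of the 10 genes met, and 20725 genes in all. Cdx2 and Cdh17 did not, and their levels are given without a test.

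Common bile duct epithelium from C57BL/6 mice was profiled on 1-colour Agilent arrays, in 3 samples from iFGF10 mice that drank 0.02% doxycycline for 5 days (DOX+) and 3 samples from mice given plain water for 5 days (DOX-). Doxycycline is an antibiotic commonly used to switch on transgenes, and FGF10 is a secreted growth factor that acts on epithelia. The series design describes the DOX+ mice as overexpressing FGF10. The labels name neither the promoter that drives the construct nor the age of the mice. The sample names of the DOX- arrays carry the letters WT and a pair of numbers while their source names call the mice untreated iFGF10 mice, so the labels do not settle whether the controls carried the construct or whether each sample was pooled. There was no group without the construct on doxycycline, so an effect of the drug and an effect of the construct cannot be told apart.

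The DOX+ arrays had 59.9% to 61.9% of their spots well above background, and the DOX- arrays 55.9% to 60.6%, with DOX- replicate 3 lowest. Of the 20 cholangiocyte markers listed, 19 to 20 were well above background on each array, among them the duct keratins Krt7 and Krt8. Markers of hepatocytes were present as well: 14 to 17 of the 17 were detected per DOX+ array, and 14 to 17 per DOX- array.

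Enterocytes are the absorptive cells that line the intestinal villi. Their apical membrane is folded into microvilli, the brush border, which holds enzymes that cut peptides and sugars and carriers that take up the products together with sodium. Inside the cell, fatty acid binding proteins carry lipids that are then packed with apolipoproteins into chylomicrons, while CDX2 and HNF4 proteins drive many of these genes. Bile duct epithelium is not an absorptive tissue of this kind, but cholangiocytes also carry microvilli, villin and some carriers that recover solutes from bile.

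The comparison of DOX+ with DOX- epithelium asks whether these genes differ between doxycycline-treated iFGF10 mice and their controls. Levels are log2 of the processed intensity relative to the 75th percentile of the same array, so that 0 is that percentile, and differences are DOX+ minus DOX-. At a limma adjusted p below 0.05 over all genes, 0 of the 8 measured members passed, against 0.0386% of all genes tested. Before adjustment, 5 of the 8 had a limma p below 0.05, against 13.3% of all genes. These were Slc5a1, Slc6a19, Anpep and Apoa4 on the higher side and Vil1 on the lower side, where all genes gave 7.03% and 6.32%. The same 5 had levels that did not overlap between the groups, against 21.0% of all genes (10.1% higher and 10.9% lower). Slc5a1, Slc6a19 and Apoa4 passed the detection filter only through their DOX+ arrays, which favours a higher level there, so those shares are not a like comparison. Among the 5 members that were well above background on all 6 arrays, the levels of 2, Anpep and Vil1, did not overlap between the groups, against 20.3% of all genes detected on every array.

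**Figure D1:**
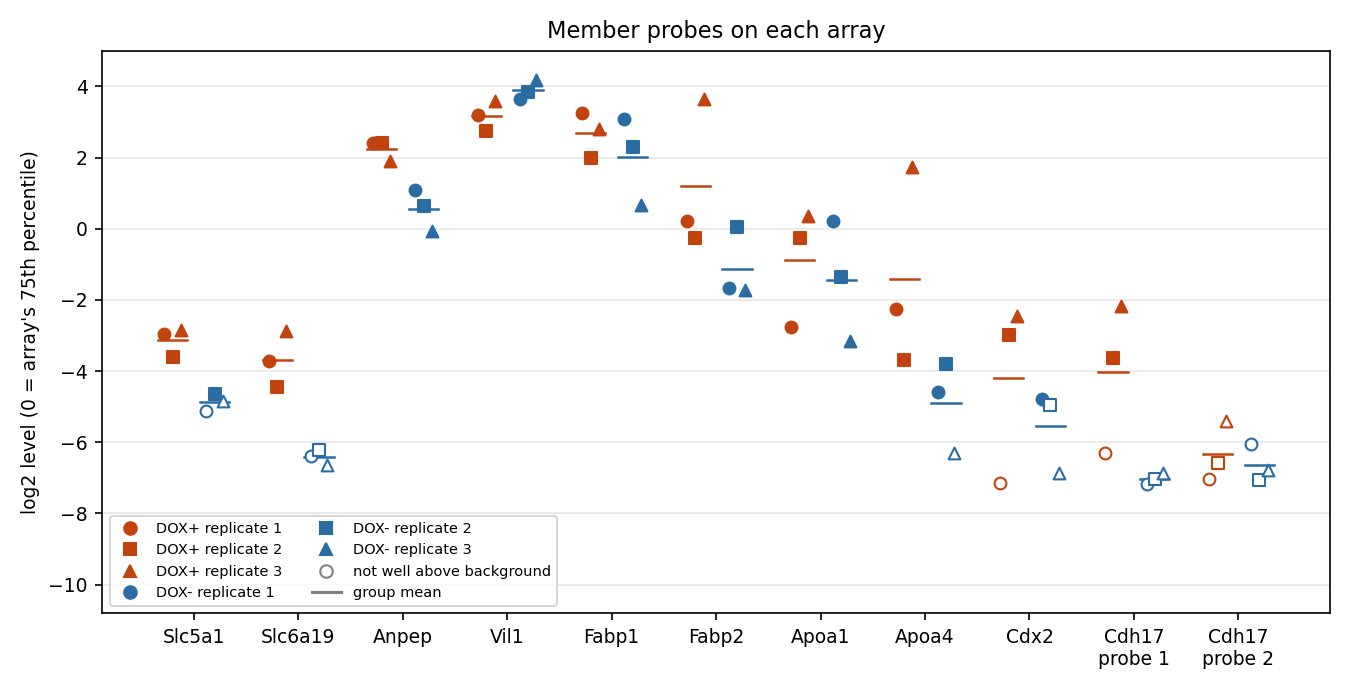
Log2 level of each of the 11 member probes (vertical axis, 0 is the array's 75th percentile) on the 3 DOX+ arrays (orange) and the 3 DOX- arrays (blue), with the group means as bars and open symbols for spots not well above background. Anpep, Slc5a1 and Slc6a19 lie higher on every DOX+ array, Vil1 lies lower, and DOX+ replicate 3 stands far above the others for Fabp2 and Apoa4.

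The carriers of glucose and amino acids were dim in both groups and brighter on every DOX+ array. Slc5a1 encodes the carrier that brings glucose and galactose into the enterocyte with sodium, and its probe lies at chr5:33504561-33504620 on the plus strand (mm9). Its processed intensity was 92.0, 68.9 and 126 on DOX+ replicates 1 to 3, against 23.5, 35.9 and 23.5 on DOX- replicates 1 to 3. The groups did not overlap, and only DOX- replicate 2 was well above background among the controls. On the log2 scale Slc5a1 averaged -3.13 ± 0.40 in DOX+ and -4.86 ± 0.25 in DOX- (SD, n = 3 each). The difference was 1.73 (SE 0.24, 95% interval 1.14 to 2.32), a 3.31-fold higher mean level in DOX+, with limma adjusted p = 0.135. In bulk tissue such as this, fewer cells of a type and less RNA per cell cannot be told apart.

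Slc6a19, the main carrier of neutral amino acids of the brush border, has its probe at chr13:73818718-73818777 on the minus strand. Intensities were 54.3, 38.3 and 124 in DOX+ and 9.81, 11.9 and 6.69 in DOX-. All 3 DOX+ spots and none of the DOX- spots were well above background. With the scanner software's background correction the gene was therefore at least 2.35-fold higher in DOX+, a lower bound taken against the dimmest signal that counts as well above background on each DOX- array. Mean levels were -3.68 ± 0.78 in DOX+ and -6.42 ± 0.21 in DOX- (SD, n = 3 each), with limma adjusted p = 0.135. Both carriers lie close to the background. With normexp correction and an added offset of 50 in place of the scanner software's correction, the differences were 0.70 for Slc5a1 and 0.82 for Slc6a19, against 1.73 and 2.74 as fitted here, so the bound for Slc6a19 does not carry over. The offset alone compresses dim signals, and its share in this was not tested.

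Anpep had a higher mean in DOX+ as well, and was well above background on all 6 arrays. It encodes aminopeptidase N, which trims amino acids from the ends of peptides at the brush border and is also made by bile duct epithelium and myeloid cells, and its probe lies at chr7:86966716-86966775 on the minus strand. Intensities were 3803, 4447 and 3388 in DOX+ and 1738, 1375 and 642 in DOX-. Every DOX+ array was above every DOX- array, and DOX- replicate 3 was the lowest. Levels averaged 2.24 ± 0.30 in DOX+ and 0.55 ± 0.57 in DOX- (SD, n = 3 each). The difference was 1.69 (SE 0.32, 95% interval 0.92 to 2.46), or 3.23-fold, with limma adjusted p = 0.176. When arrays were weighted by their quality, Anpep, Slc5a1 and Slc6a19 passed the test with limma adjusted p of 0.0353, 0.0398 and 0.0353, and so did 1.81% of all genes. Those weights ranged from 0.388 for DOX- replicate 3 to 4.92 for DOX- replicate 2.

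Vil1, well above background on all 6 arrays, was the only measured member with a lower mean in DOX+. Villin, its product, bundles the actin filaments of microvilli. Its probe, at chr1:74481982-74482041 on the plus strand, read 6548, 5571 and 10887 in DOX+, against 10218, 12771 and 12012 in DOX-. Raw intensities of DOX+ replicate 3 and DOX- replicate 1 overlapped, but after scaling the DOX+ levels were 3.20, 2.74 and 3.58, against 3.64, 3.84 and 4.17 in DOX-, with no overlap. The means were 3.17 ± 0.42 in DOX+ and 3.89 ± 0.27 in DOX- (SD, n = 3 each). The difference was -0.71 (SE 0.25, 95% interval -1.33 to -0.09; limma adjusted p = 0.332). It was -0.46 with the row of the slide as a block.

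The genes of lipid handling differed widely between samples of 1 group. Fabp1 encodes the fatty acid binding protein of liver and proximal intestine, with its probe at chr6:71154906-71154965 on the plus strand. Intensities were 6831, 3288 and 6302 in DOX+ and 6970, 4395 and 1051 in DOX-. The groups overlapped, and DOX- replicate 3 stood below all other arrays. The difference of the mean levels, 2.68 ± 0.65 in DOX+ and 2.02 ± 1.24 in DOX- (SD, n = 3 each), was 0.66 (SE 0.66, 95% interval -0.93 to 2.26; limma adjusted p = 0.690). Without DOX- replicate 3 it was -0.02, and -0.41 once slide row was added as a block, so its direction is not settled.

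Fabp2 encodes the binding protein made by enterocytes, and its probe lies at chr3:122602276-122602335 on the plus strand. Intensities were 834, 701 and 11322 in DOX+ and 257, 922 and 201 in DOX-. DOX+ replicate 3 was far above every other array, while the other 2 DOX+ arrays overlapped with DOX- replicate 2. The levels averaged 1.21 ± 2.12 in DOX+ and -1.12 ± 1.01 in DOX- (SD, n = 3 each), and the difference was 2.32 (SE 1.09, 95% interval -0.33 to 4.97; limma adjusted p = 0.418). Without DOX+ replicate 3 it was 1.1.

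Apoa4 followed the same arrays. Apolipoprotein A-IV is secreted on chylomicrons by enterocytes, and in the mouse by the liver too. The probe, at chr9:46051206-46051266 on the plus strand, read 148, 64.9 and 3044 in DOX+, against 34.3, 63.7 and 8.5 in DOX-. The scaled groups did not overlap, but narrowly: DOX+ replicate 2 was at -3.68 and DOX- replicate 2 at -3.80, and only DOX- replicate 3 was not well above background. Apoa4 averaged -1.40 ± 2.81 in DOX+ and -4.89 ± 1.27 in DOX- (SD, n = 3 each). The difference, 3.49 (SE 1.43, 95% interval 0.01 to 6.97; limma adjusted p = 0.374), was 1.92 without DOX+ replicate 3 and 2.06 with normexp correction and the offset. With quantile normalisation, and in the authors' processed values, the groups overlapped.

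Apoa1, a neighbour of Apoa4 on chromosome 9, encodes the main protein of high density lipoprotein and is made by liver and intestine. With its probe at chr9:46037921-46037980 on the plus strand, it read 106, 694 and 1173 in DOX+ and 952, 348 and 74.5 in DOX-. The groups overlapped widely, with DOX+ replicate 1 and DOX- replicate 3 the lowest. The levels averaged -0.88 ± 1.65 in DOX+ and -1.43 ± 1.69 in DOX- (SD, n = 3 each), and the difference was 0.55 (SE 1.1, 95% interval -2.11 to 3.22; limma adjusted p = 0.861). It was -0.07 without DOX+ replicate 3, -0.31 without DOX- replicate 3 and -1.1 once slide row was added as a block.

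Apoa1 and Apoa4 belong to 1 family of related apolipoproteins, so the 60-base probes are shown to let their sequences be compared. Capitals mark the longest run of letters that the pair shares, which is 5 bases.
Apoa1 probe: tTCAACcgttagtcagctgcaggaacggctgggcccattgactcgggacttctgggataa
Apoa4 probe: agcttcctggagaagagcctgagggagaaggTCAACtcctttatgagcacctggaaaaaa
None of the 11 member probes shared a run of 20 bases with a probe of another gene on the array. Matches to other transcripts were not tested. The order of the arrays differed between Apoa1 and Apoa4: DOX+ replicate 1 was the lowest DOX+ array for Apoa1, and DOX+ replicate 2 the lowest for Apoa4.

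The RefSeq promoter windows (GRCm38.p6) were searched on both strands for letters that factors of this programme are known to bind, which were chosen after the levels had been seen. Windows reached 250 bases before the start of each gene, and 9 of the 10 members had an entry. The HNF4-type run CAAAGTNCA was found in Apoa4 and Fabp2, and in 1.19% of all 32851 promoters. Both genes peaked on DOX+ replicate 3, but so did Slc5a1, Slc6a19, Cdx2 and Apoa1, whose windows lacked the run. Capitals mark the run in the stretches around it, on the reverse strand in Fabp2.
Apoa4, chr9:46240632-46240700, plus strand: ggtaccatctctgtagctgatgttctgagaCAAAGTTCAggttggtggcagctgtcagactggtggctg
Fabp2, chr3:122894905-122894973, plus strand: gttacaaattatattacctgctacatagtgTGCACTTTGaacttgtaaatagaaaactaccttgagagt
The match began 182 bases before the start of Apoa4 and 137 before that of Fabp2. The looser run CAAAGNNCA, which includes the first, was in the same 2 members and in 5.49% of promoters.

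Of the CDX-type runs, TTTAT was found in Fabp1 and Fabp2 and in 37.3% of promoters, TTTATG in Fabp1 and in 10.8%, and TTTATGG, which contains both, in Fabp1 and in 2.43%. Fabp1 was detected on all 6 arrays and Cdx2 on 3 of them. Within DOX+, Fabp1 was highest on replicate 1, where Cdx2 was undetected, and a link between these genes was not tested. Fabp1 held TTTATGG at 2 places, 227 and 89 bases before its start, both on the reverse strand and shown here in capitals.
Fabp1, chr6:71199632-71199816, plus strand: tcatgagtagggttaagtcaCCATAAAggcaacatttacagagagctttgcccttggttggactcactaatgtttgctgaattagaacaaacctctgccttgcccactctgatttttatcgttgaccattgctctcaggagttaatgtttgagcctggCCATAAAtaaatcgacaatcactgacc
The GATA-type run AGATAA was in 0 members and in 9.99% of promoters. A match describes letters in a window and is not a site of binding.

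Cdx2 and Cdh17 were near background on most arrays. CDX2 sets intestinal identity and is not a usual gene of bile duct epithelium. Its probe, at chr5:148112547-148112606 on the minus strand, read 5.08, 105 and 167 in DOX+ and 30, 28.5 and 5.73 in DOX-. It was well above background on DOX+ replicates 2 and 3 and on DOX- replicate 1, and the groups overlapped. Mean levels were -4.19 ± 2.56 in DOX+ and -5.53 ± 1.15 in DOX- (SD, n = 3 each).

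Cdh17 encodes liver-intestine cadherin, an adhesion protein of enterocytes whose gene is a known target of CDX2 in human cells. Its detected probe, 1 of 2, lies at chr4:11744272-11744331 on the plus strand and read 9.09, 66.9 and 202 in DOX+ and 5.64, 6.76 and 5.77 in DOX-. DOX+ replicates 2 and 3 were well above background and no DOX- array was. Against the dimmest detected signal of each DOX- array, the mean was 1.84-fold higher in DOX+. DOX+ replicate 1 entered with its undetected signal, so that fold is not a strict lower bound. The other probe, at chr4:11738574-11738633 on the plus strand, was well above background on 0 of 6 arrays and gave 5.43, 8.70 and 21.6 in DOX+ and 12.4, 6.66 and 6.07 in DOX-. Cdx2 and Cdh17 shared the order of the DOX+ arrays, with replicate 3 highest and replicate 1 at background.

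**Figure D2:**
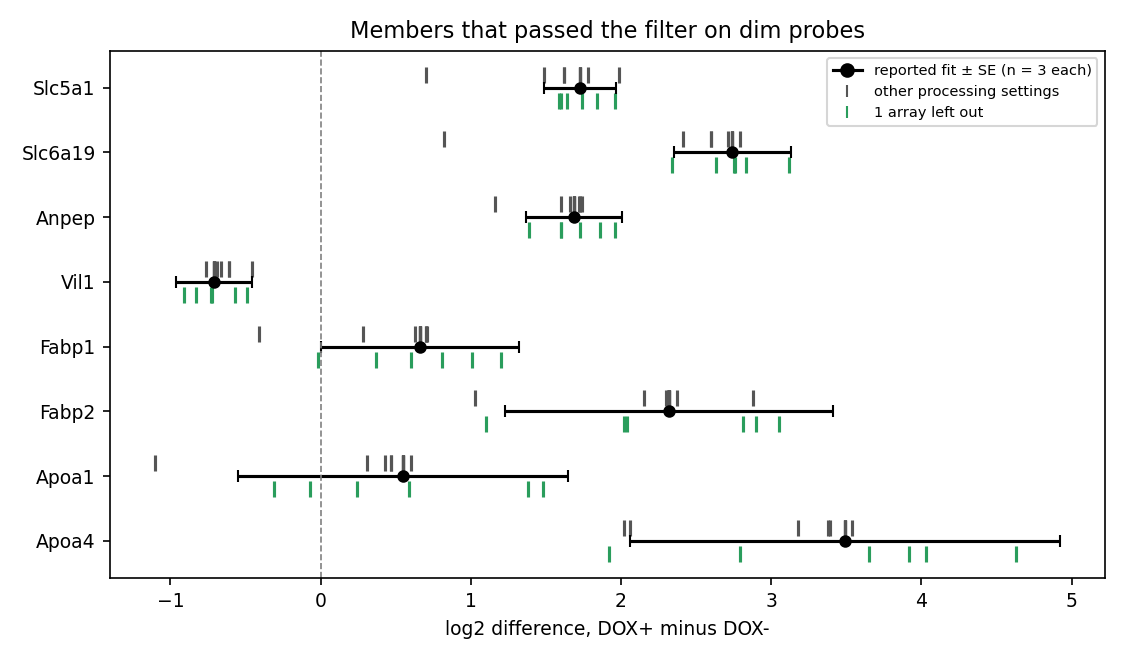
Log2 difference, DOX+ minus DOX- (horizontal axis), of the 8 members that passed the detection filter, with the reported fit and its SE (black, n = 3 each), other processing settings (grey ticks) and fits without 1 array (green ticks). The ticks of Slc5a1, Slc6a19, Anpep, Fabp2 and Apoa4 lie above 0 and those of Vil1 below, while those of Fabp1 and Apoa1 fall on both sides.

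The spread within DOX+ followed particular arrays. Of the 10 member probes detected on at least 1 DOX+ array, 8 were highest within DOX+ on replicate 3, all but Anpep and Fabp1, and 6 were lowest on replicate 2. Over all 6 arrays, 7 of the 10 members (70.0%) had their highest level on DOX+ replicate 3, against 17.7% of 24316 detected genes. Vil1 was highest on DOX- replicate 3, which held the highest level of 29.8% of those genes. DOX- replicate 3 was the lowest DOX- array for Anpep, Cdx2, Fabp1, Fabp2, Apoa1 and Apoa4.

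Some other enterocyte genes, singled out after their values were seen, also peaked on DOX+ replicate 3. Over whole lists, 9 of 16 detected brush border hydrolases (56.2%) and 7 of 16 transporters (43.8%) had their highest level there, but only 4 of 22 lipid genes (18.2%), near the 17.7% of all genes. Alpi, the intestinal alkaline phosphatase, had levels of -2.10, -7.45 and 1.38 in DOX+ and -7.27, -5.02 and -6.93 in DOX-, where it was undetected. Sis, which encodes sucrase-isomaltase, had -4.47, -7.52 and 0.92 in DOX+ and -4.57 at most in DOX-. Lct, which encodes lactase, had -4.09, -6.25 and 0.06 in DOX+ and -3.96 at most in DOX-. All 3 share with Slc5a1, Slc6a19, Fabp2 and Apoa4 the order replicate 3, replicate 1, replicate 2 within DOX+. Vil1, which had a lower mean in DOX+, had the same order. This order held for 5 of the 10 members, against 16.7% of all detected genes. It also held for 7 of 16 detected hydrolases (43.8%), 6 of 16 transporters (37.5%) and 6 of 22 lipid genes (27.3%). The 1 DOX- array with Sis and Lct detected was replicate 2, also the highest DOX- array for Slc5a1, Fabp2 and Apoa4. Treh, which encodes trehalase, was detected on DOX+ replicate 3 alone, with levels of -4.84, -7.21 and -0.58 in DOX+ and -6.67 at most in DOX-. Rbp2, which binds retinol in enterocytes, had -5.34, -4.44 and -1.11 in DOX+, where replicate 1 was undetected. It was detected on 0 of the 3 DOX- arrays. Against the dimmest detected signal of each DOX- array, its mean was 2.43-fold higher in DOX+. DOX+ replicate 1 entered with its undetected signal, so that fold is not a strict lower bound. The fructose carrier Slc2a5 had -4.68, -2.49 and -0.57 in DOX+ and -4.77, -4.29 and -6.91 in DOX-, with a difference of 2.75 (SE 1.15, limma adjusted p = 0.379).

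Cdx2 and Cdh17 were at background on DOX+ replicate 1, and shared their pattern over the arrays with some goblet and enteroendocrine genes. Muc2, the main secreted mucin of intestinal goblet cells, had levels of -4.18, 1.39 and 1.87 in DOX+ and -3.57, -4.77 and -5.47 in DOX-. Clca1, a goblet cell secretory protein, had -2.44, 3.58 and 2.89 in DOX+ and -1.76, -2.50 and -1.48 in DOX-. Chga, a granule protein of enteroendocrine cells, had -7.29, -1.19 and -2.47 in DOX+ and -6.11, -4.14 and -5.61 in DOX-. In all 3 genes DOX+ replicates 2 and 3 were above every other array, as they were for Cdx2 and Cdh17. Of the 15 detected genes of their list, 7 (46.7%) had this pattern, against 8.82% of all detected genes. Zg16, Tff3, Fcgbp and Lyz1 were among those without it. Outside that list, Rbp2 and Slc2a5 had the pattern too. It held for 2 of 16 detected hydrolases (12.5%), 2 of 16 transporters (12.5%) and 1 of 22 lipid genes (4.55%). For mineral and vitamin uptake genes the share was 12.5%, for intestinal transcription factors 5.56% and for brush border structure genes 0.0%. Of the 16 goblet, Paneth and enteroendocrine markers, 12 to 15 were detected per DOX+ array and 10 to 12 per DOX- array. The mean log2 level of the 16 was -1.46, 0.45 and 0.96 in DOX+ and -1.28, -0.90 and -1.17 in DOX-. Their summed linear level, in multiples of the 75th percentile, was 153 to 196 in DOX+ and 175 to 199 in DOX-, a sum set mostly by the brightest probes, such as that of Mmp7. Only Neurog3 was well above background on 0 of the 6 arrays. The part of such cells in the Cdx2 and Cdh17 values was not tested. Cdx2, unlike Cdh17, also had the pattern of most hepatocyte markers that is described next.

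The order of the DOX- arrays for Apoa1 was also that of several genes the liver expresses, named here after their values were seen. Alb, which encodes albumin, had levels of 2.07, 5.20 and 3.37 in DOX+ and 5.25, 4.32 and 1.95 in DOX-. Fgb, which encodes a fibrinogen chain, had -1.38, 2.07 and 1.84 in DOX+ and 2.58, 1.17 and -1.45 in DOX-. Ahsg, which encodes fetuin-A, had 0.70, 3.57 and 2.97 in DOX+ and 4.04, 3.04 and 1.15 in DOX-. As with Apoa1, the order in DOX- was replicate 1, replicate 2, replicate 3, and DOX+ replicate 1 was the lowest of its group. That held for 13 of the 17 hepatocyte markers (76.5%), against 7.04% of all detected genes. Among the members it held for 2 of 10, Apoa1 and Cdx2. Cdx2 had -7.13, -2.99 and -2.45 in DOX+ and -4.77, -4.96 and -6.86 in DOX-. Within DOX- it was well above background on replicate 1 alone, so its order there rests partly on undetected spots. Within DOX+, though, Alb, Fgb and Ahsg were highest on replicate 2, and Apoa1 and Cdx2 on replicate 3. Over all 6 arrays, 12 of the 17 markers were highest on DOX- replicate 1 and Apoa1 on DOX+ replicate 3. Ttr, with 5.91, 5.86 and 5.30 in DOX+ and 5.19, 5.20 and 5.54 in DOX-, did not follow this order, nor did Ambp. Apoc3, a liver and gut apolipoprotein encoded next to Apoa1 and Apoa4, had -1.60, 1.05 and 1.01 in DOX+ and 1.65, 0.57 and -0.98 in DOX-. Fabp1, also a liver gene, had the same order in DOX- but was highest on DOX+ replicate 1. The mean log2 level of the 17 markers was -1.33, 1.06 and 0.29 in DOX+ and 1.39, 0.40 and -1.12 in DOX-. Their summed level, set mostly by the bright Ambp probe, was 314 to 389 in DOX+ and 349 to 408 in DOX-, and each of them was well above background somewhere. The part of liver RNA in the Apoa1, Fabp1 and Cdx2 values was not tested.

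**Figure D3:**
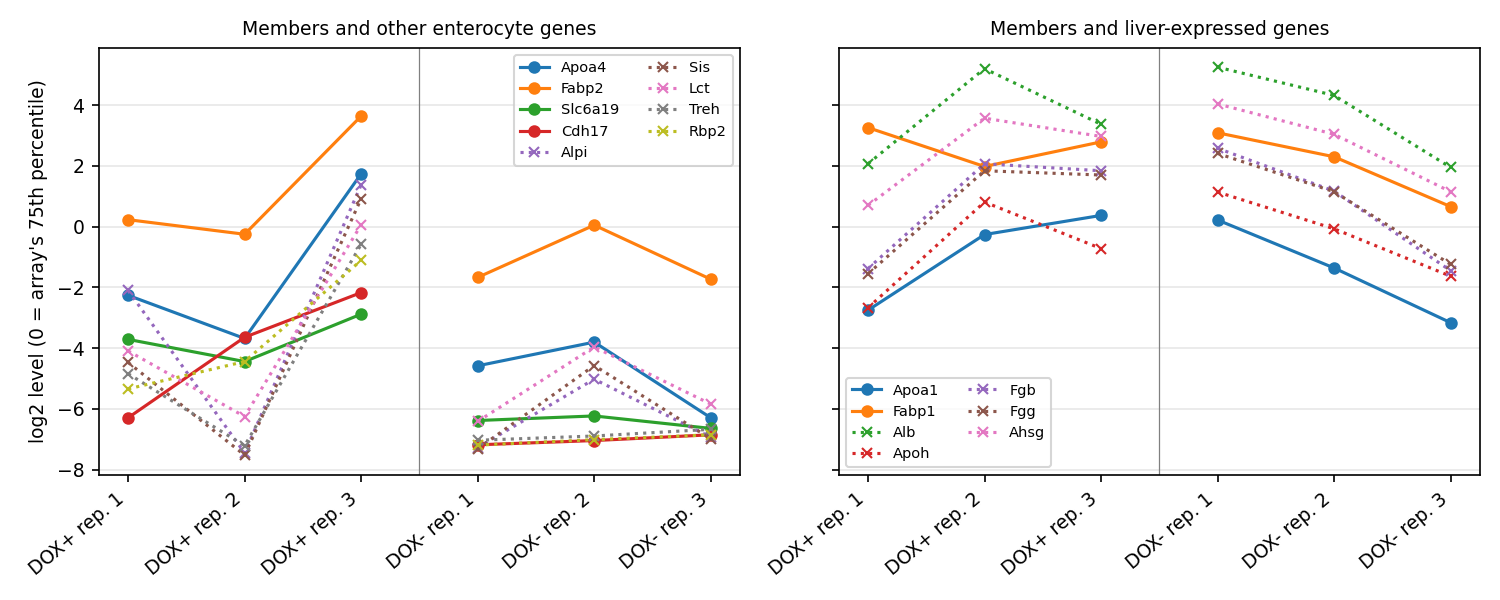
Log2 level (vertical axis, 0 is the array's 75th percentile) on each DOX+ and DOX- array of members (solid lines) beside other enterocyte genes (left, dotted) and liver-expressed genes (right, dotted). Apoa4, Fabp2, Alpi, Sis and Lct peak on DOX+ replicate 3 at levels of 1.74, 3.64, 1.38, 0.92 and 0.06, and Apoa1 has the same order as Alb, Fgb and Ahsg in DOX-.

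Beyond the members, 6 lists of absorptive genes and 6 lists of cell type markers were read from the same fit, and 0 genes of any list passed at a limma adjusted p below 0.05. As for Anpep, Slc5a1 and Slc6a19, some passed with array weights: limma adjusted p was 0.0325 for Slc26a3, 0.0353 for Krt7 and 0.0353 for Slc10a2. The median difference over all genes tested was -0.01. Of the 20 brush border structure genes 19 were measured, and 15 had a lower mean in DOX+ and 4 a higher one, where all genes gave 10724 lower and 10001 higher. The median was -0.25, but -0.03 with slide row as a block, -0.05 without DOX- replicate 3 and -0.40 without DOX+ replicate 3. Krt20, a keratin of differentiated gut epithelium, had a difference of -1.17 (SE 0.46), and the microvillus motor Myo1d -0.40 (SE 0.16). Both had an unadjusted limma p below 0.05 and were the only genes of their list that did. The value of Myo1d is that of its brightest probe, and its other kept probes gave 0.08, -0.18 and 0.04.

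The brush border hydrolases had 9 of 18 genes measured. Their median was 0.38, and 0.16 to 0.93 with 1 array left out (lowest without DOX- replicate 3, highest without DOX+ replicate 2), 0.15 over genes detected on all 6 arrays, 0.92 with no filter and -0.12 with each probe tested alone. Of the 9, 3 had an unadjusted limma p below 0.05, all with a higher mean in DOX+, against 7.03% of all genes. Among them, the difference was 1.16 (SE 0.44) for Ggt1, which splits glutathione, and 0.38 (SE 0.16) for the peptidase Ace. Dpp4, another brush border peptidase, averaged 0.76 ± 0.16 in DOX+ and 0.89 ± 0.27 in DOX- (SD, n = 3 each), with a difference of -0.13 (SE 0.18).

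Among the sugar, amino acid and peptide transporters, 15 of 18 were measured and the median was -0.01. Of these, 1 had an unadjusted limma p below 0.05, the basolateral amino acid carrier Slc43a2, with a difference of -1.0 (SE 0.28). Slc15a1, the brush border carrier of peptides, did not pass the detection filter, and its levels were -4.62, -6.25 and -4.42 in DOX+ and -4.64, -6.70 and -6.22 in DOX-. The median of the list was thus that of all genes, and it was -0.11 over the 12 detected on all 6 arrays. Slc5a1 and Slc6a19 passed the filter only through their DOX+ arrays, so they are not a like comparison. Slc2a5, which passed in the same way, had a difference of 2.75.

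Lipid uptake and lipoprotein assembly genes were centred near 0, with 21 of 22 measured and a median of 0.06. The 2 with an unadjusted limma p below 0.05 were lower in DOX+: Acsl5, which activates fatty acids, at -0.62 (SE 0.23), and Apobec1, the editing enzyme of the Apob transcript, at -0.50 (SE 0.16). These are values of the brightest probes. The other kept probe of Acsl5 gave 0.09, and the mean of its kept probes -0.27. The other kept probes of Apobec1 gave -0.39 and -0.7. Mttp, which loads lipid onto apolipoprotein B, had levels of -2.82, -2.75 and -0.71 in DOX+ and -2.72, -2.79 and -3.06 in DOX-, and so was high on DOX+ replicate 3, like Apoa4 and Fabp2. Apob itself averaged -1.58 ± 0.79 in DOX+ and -1.36 ± 0.82 in DOX- (SD, n = 3 each).

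Of the mineral and vitamin uptake genes, 14 of 16 were measured, with a median of 0.19. Slc26a3, a chloride and bicarbonate exchanger, had levels of 5.79, 5.42 and 5.04 in DOX+ and 3.85, 3.55 and 4.09 in DOX-. Its difference was 1.59 (SE 0.24, limma adjusted p = 0.141), about that of Anpep and with as little spread as Slc5a1. For the ferroxidase Heph, which passed the detection filter only through its DOX+ arrays, it was 2.12 (SE 0.64, limma adjusted p = 0.281). Slc40a1, the iron exporter ferroportin, had 0.50 (SE 0.17, limma adjusted p = 0.325) on its brightest probe and 0.12 on its other one. The zinc importer Slc39a4 had -0.78 (SE 0.22) with no overlap between the groups.

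Among the intestinal transcription factors, 16 of 18 were measured, with a median of -0.06. Hnf4a had levels of 3.43, 3.23 and 3.60 in DOX+ and 3.70, 3.90 and 3.81 in DOX-, a difference of -0.38 (SE 0.15, limma adjusted p = 0.353). Creb3l3, a membrane-bound factor of liver and intestine, was higher on every DOX+ array with a difference of 2.05 (SE 0.71), highest on replicate 1. Cdx1, the relative of Cdx2, had -5.81, -3.13 and 0.33 in DOX+ and -3.54, -1.63 and -1.26 in DOX-, with a difference of -0.72 (SE 1.54). It shared with Cdx2 a low DOX+ replicate 1 and a high DOX+ replicate 3, but was well above background on all 3 DOX- arrays.

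**Figure D4:**
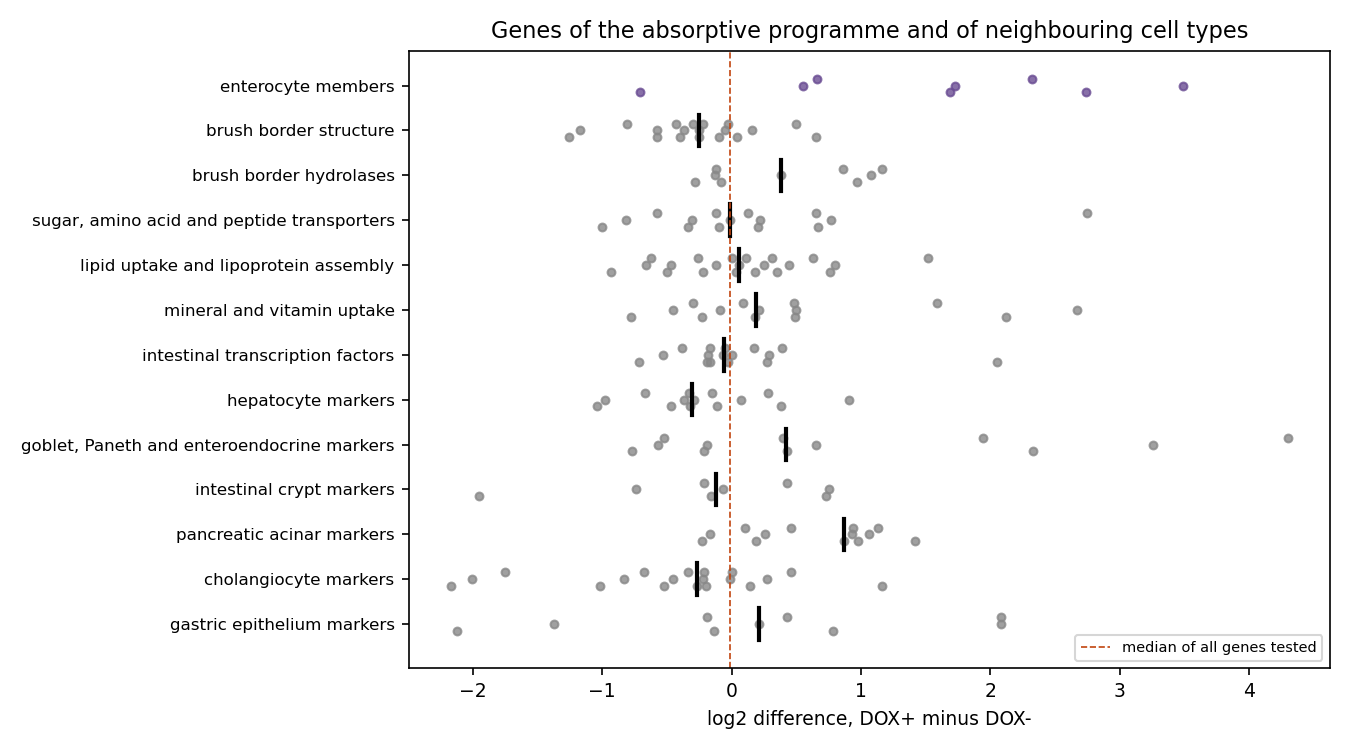
Log2 difference, DOX+ minus DOX- (horizontal axis), of each measured gene, for the members (purple) and for 12 lists of absorptive genes and cell type markers (grey), with the median of each list as a black bar and that of all genes tested as a dashed line. Of the 8 members in the reported fit, Vil1 alone lies below 0, while the medians of the 6 absorptive lists lie between -0.25 and 0.38.

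Markers of neighbouring cell types are given beside the members, and the part of such cells in the members' values was not tested. Cholangiocyte markers, 19 of 20 measured, had a median of -0.27. Of these, 5 had an unadjusted limma p below 0.05 on the lower side, against 6.32% of all genes, and 1 on the higher side, Ggt1, against 7.03%. The 5 were Cdh1 at -2.01 (SE 0.37), Slc10a2 at -1.75 (SE 0.31), Krt7 at -1.02 (SE 0.19), Tspan8 at -0.83 (SE 0.18) and Anxa4 at -0.45 (SE 0.18). The value of Anxa4 is that of its brightest probe, and its other kept probes gave -1.25, 0.52 and 0.21, so its direction is not settled. Krt8, at -0.34 (SE 0.15), was not among the 5, and Cdh1 passed without DOX+ replicate 2 (limma adjusted p = 0.0365). The list's summed level was 765 to 892 in DOX+ and 887 to 1200 in DOX-. The hepatocyte markers, 14 of 17 measured, had a median of -0.31, which was 0.38 without DOX+ replicate 1, 0.32 without DOX- replicate 1 and -1.11 without DOX- replicate 3, with Tat at -1.04 (SE 0.30), Alb at -0.29 (SE 1.08) and Ttr at 0.38 (SE 0.21). Pancreatic acinar markers, 13 of 15 measured, had a median of 0.87 and a summed level of 108 to 192 in DOX+ and 60.7 to 301 in DOX-, with Cpa1 at 1.06 (SE 1.89). None of them was highest on DOX+ replicate 3, the array where most members peaked.

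Goblet, Paneth and enteroendocrine markers, 12 of 16 measured, had a median of 0.42, which was -0.19 over genes detected on all 6 arrays and -0.01 without DOX- replicate 3, with Muc2 at 4.3 (SE 1.62) and Tff3 at -0.77 (SE 0.65). Muc2 passed the detection filter only through its DOX+ arrays, where it is higher. The 8 crypt markers were all measured, with a median of -0.12, Lgr5 at -1.95 (SE 0.83) and Olfm4 at 0.43 (SE 0.43). Lgr5 passed the filter only through its DOX- arrays, where it is higher. The summed level of the 8 was 26.6 to 28.3 in DOX+ and 30.4 to 31.1 in DOX-. Gastric markers, 9 of 14 measured, had a median of 0.21 and summed to 23.2 to 100 in DOX+ and 26.3 to 48.2 in DOX-. The pepsinogen gene Pgc had a difference of 2.08 (SE 0.57), the proton pump gene Atp4a -2.12 (SE 0.87), Tff1 -1.37 (SE 0.53) and Tff2 -0.14 (SE 0.67). Gkn1, Gkn2, Muc5ac and Sox2 were well above background on 0 of the 6 arrays.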

How the data were processed

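Per the labels' protocols, total RNA was isolated with an RNeasy mini kit, amplified with a Low input Quick Amp kit and labelled with Cy3. The authors deposited scanner files of spot intensity. These came from Agilent Feature Extraction, whose version is 10.7.1.1 in the file headers but 9.5.1.1 in the submitters' processing notes. The processed intensity is background-subtracted array by array, per the file headers, with no adjustment between arrays. A deposited table holds the authors' processed intensity values, on a linear scale; each column correlated with its own array at 0.998 or more across probes, every column had the median 57.79, and columns sorted by size differed by at most 0.00034 in relative terms. It was used as an alternative. Scale, centring and direction of that table are thus known, while its software was not given in the labels or headers.

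Each array held 59305 spots that are not controls, 50 to 64 of which were left out as outliers, and none was saturated. From the processed intensity, log2 levels were computed relative to the 75th percentile of each array, and spots of 1 probe were averaged. A probe was kept if every array of DOX+, or every array of DOX-, had it well above background (31720 of 56605), and the brightest kept probe stood for its gene. Probe coordinates are mm9, as the files give them, with no exon or UTR stated; promoter sequences are from RefSeq (GRCm38.p6). Probes were named by accession (33903), symbol (9458) or older symbol (488) in the RefSeq table, and 12756 kept the file's name. The test was limma 3.58.1 (R 4.3.3), with lmFit and eBayes, group as the only term, two-sided p-values adjusted by Benjamini-Hochberg across 20725 genes, and a threshold of 0.05. A fold against a group with no spot well above background is a lower bound if the other group was detected on every array, as for Slc6a19. For such a fold, each array of the undetected group was set to the dimmest detected signal on that array. Where the probe's own signal was higher, that was used instead. For Cdh17 and Rbp2, the undetected DOX+ spot kept its own signal.

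With 1 slide and 1 scan for all arrays, neither could act as a batch. Row 1 of the slide held DOX+ replicates 1 to 3 with DOX- replicate 1, and row 2 held the other two DOX- arrays. On simulated data for this comparison (20725 genes, 200 of them changed, 20 draws), limma found 32.4% of the genes altered 2-fold, 85.9% at 4-fold and 95.3% at 8-fold, and 6.17% of its calls were false. With 3 arrays per group, the number of arrays limits the precision, and the median SE was 0.185. Since the labels do not tie every sample to 1 animal, p-values measure only how these samples spread, which may be technical. The members and all gene lists were chosen with earlier results of these data known. Genes named beyond the members are, per list, up to 4 with the largest difference among those with an unadjusted p below 0.05, the first 2 of each cell type list, and chosen transcription factors (some genes that this rule names are not reported here); Alpi, Sis, Lct, Treh, Rbp2, Slc2a5, Slc15a1, Dpp4, Mttp, Apob, Apoc3, Clca1, Chga, Fgb, Ahsg, Tspan8, Anxa4, Ambp, Mmp7, Zg16, Fcgbp and Lyz1 were named after their values were seen.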

Additional observations from a re-analysis of the deposited data

How the results depend on the processing

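Of the values recomputed under 17 alternatives, 867 kept their direction and their side of the threshold, or moved by less than the spread, 21 moved, 7 newly passed the threshold and 16 reversed. The causes were not tested. The count of members past the test was 3 with array weights and 0 under the other alternatives. The count of all genes past it, 8 as reported, was 2 with quantile normalisation, 2 with the authors' values, 1 with no filter, 5 with detection on all 6 arrays, 18 with each probe tested alone, 376 with array weights, and 0 to 30 when 1 array was left out. With slide row as a block limma gave 0 (1409 at an unadjusted p below 0.05) and 0 with the replicate number as a block (2259 unadjusted). Without DOX- replicate 2 it was 0 in limma as well (1556 unadjusted). The replicate block changed no call of a member. Deviations of samples with the same number correlated at -0.0862, -0.131 and -0.0191, and those of samples with different numbers at -0.129 to 0.22. These values gave no sign that the numbers pair the samples, but they cannot settle how the samples were collected. The members whose groups did not overlap, 5 as reported, were 4 with quantile normalisation and 4 with the authors' values, where Apoa4 overlapped, 2 with detection on all 6 arrays, where Slc5a1, Slc6a19 and Apoa4 are not tested, and 5 to 7 with 1 array left out. The array weights were estimated gene by gene, a choice made after the default estimate did not converge.

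Reversed differences were as follows. With slide row as a block they were -0.41 for Fabp1, -1.1 for Apoa1, 0.67 for Cdx1 and -0.17 for Olfm4. With 1 array left out, Fabp1 ranged from -0.02 to 1.2 (lowest without DOX- replicate 3) and Apoa1 from -0.31 (without DOX- replicate 3) to 1.48, with -0.07 without DOX+ replicate 3. In the same fits Alb ranged from -1.24 to 0.45, Cdx1 from -2.33 to 0.74, Cpa1 from -1.12 to 2.6, Tff2 from -0.91 to 0.27 and the acinar median from -1.13 to 2.15. The arrays whose loss reversed them were DOX+ replicate 1 (Alb, Cdx1 and Tff2), DOX+ replicate 3 (Tff2) and DOX- replicate 1 (Alb, Cpa1, Tff2 and the acinar median). The hydrolase median was -0.12 with each probe tested alone, and the goblet, Paneth and enteroendocrine median -0.06 in that fit and -0.08 with array weights. The hepatocyte median ranged from -1.11 to 0.38 with 1 array left out, with 0.32 without DOX- replicate 1, and was -1.69 with slide row as a block. Signal close to background limits the values of Slc5a1, Slc6a19, Cdx2 and Cdh17.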
